A study of Mus musculus with 2 samples.

Results

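AP-1 is a family of transcription factors that bind DNA as pairs of basic leucine zipper proteins, and 8 genes that encode its subunits are described here, of 35976 gene rows in the count tables. They are Junb, Jun and Jund of the Jun family, Fos, Fosb and Fosl2 of the Fos family, and Batf and Atf3, each taken by its symbol. The family was selected on values already measured in these same cells, the pool levels of Junb and Jun, so its levels and ratios are a description and support no test. The cells were single CD4 T cells of mouse spleen, and their RNA was read with SmartSeq2, which sequences whole transcripts of cells sorted 1 to a well. The cells carried the OTII receptor, a transgenic T cell receptor for ovalbumin. They had been transferred into 3 hosts with a floxed IL13Ra1 gene and CD11cCre (IL13Ra1f/f, CD11cCre/+), called deleted hosts here, or into 2 C57BL/6 control hosts. The cells of each group of hosts were pooled, on day 7 after a treatment abbreviated CAS, which the labels do not explain, and a second priming.

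The question of the study was the part of the IL-13 receptor in how T follicular helper cells arise. CD11c-Cre acts mainly in dendritic cells, so the deletion was in cells of the host and not in the transferred T cells. The reads of the cells measured cannot check the deletion. No Cre or floxed allele is named for the control hosts. The gate took propidium iodide negative, Vb5.1-5.2 positive, CD4 positive cells and named no marker that separates donor from host, so host CD4 cells could also pass it. Each pool filled 368 cell wells on 4 plates, with 542650671 reads in genes from deleted hosts and 573105030 from control hosts. The median cell held 1499762 reads in deleted hosts and 1592794 in control hosts. In deleted hosts 3 cells held under 200000 reads, and in control hosts 0. The T cell marker Cd4 was at 783 and 915 CPM (reads per 1000000 reads in genes) in deleted and control hosts, positive in 228 and 248 cells. Cd3e was at 212 and 221 CPM, positive in 326 and 339 cells. The B cell gene Ms4a1 was at 0.0350 and 0.0227 CPM, with 0 positive cells, and Cd79a, positive in 2 and 7 cells, at 3.18 and 3.63 CPM. Of the CD8 T cell genes, Cd8a was at 0.199 and 0.155 CPM, with 0 positive cells, and Cd8b1, positive in 7 and 16 cells, at 9.27 and 26.3 CPM. With 1 pooled sample per group no test between groups was possible. The 4 plates of a pool are technical splits, and plate and pool cannot be told apart.

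Jun proteins pair with each other or with Fos proteins, while Fos proteins need a Jun partner to bind DNA. In T cells, receptor signals reach Fos and Jun through the Ras and MAP kinase cascades, and AP-1 then binds beside NFAT at cytokine genes. JunB and BATF bind together with IRF4 in helper T cells. Fos, Fosb, Jun, Junb and Atf3 are classed as immediate early genes, which are transcribed within minutes of a signal, while JunD is present in most resting cells.

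Promoter sequence is shown for the 3 genes on which the results mainly turn, Junb, Jun and Fos, as the 250 bases before the transcription start in RefSeq (GRCm38.p6), read 5′ to 3′ along the gene. Capitals mark TGACG, the first letters of the site TGACGTCA that CREB and ATF proteins bind. The Junb window is chr8:84978749-84978998 (minus strand), the Jun window chr4:95052223-95052472 (minus strand) and the Fos window chr12:85473640-85473889 (plus strand).
Junb: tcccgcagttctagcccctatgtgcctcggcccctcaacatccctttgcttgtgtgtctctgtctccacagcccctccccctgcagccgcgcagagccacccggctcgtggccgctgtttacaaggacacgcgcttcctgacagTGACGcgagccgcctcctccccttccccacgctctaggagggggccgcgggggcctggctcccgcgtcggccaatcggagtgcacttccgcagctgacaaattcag
Jun: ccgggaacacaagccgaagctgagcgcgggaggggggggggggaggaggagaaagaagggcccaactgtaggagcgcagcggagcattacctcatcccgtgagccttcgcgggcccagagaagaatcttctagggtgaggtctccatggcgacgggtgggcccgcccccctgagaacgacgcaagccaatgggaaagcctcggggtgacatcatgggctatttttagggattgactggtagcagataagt
Fos: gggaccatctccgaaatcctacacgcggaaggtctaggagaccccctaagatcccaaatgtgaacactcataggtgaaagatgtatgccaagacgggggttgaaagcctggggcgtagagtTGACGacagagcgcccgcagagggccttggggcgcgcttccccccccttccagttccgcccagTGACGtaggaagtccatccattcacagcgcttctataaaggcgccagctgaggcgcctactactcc
All 8 genes had such a window, and 5 of them (Atf3, Batf, Fos, Fosb and Junb) held TGACG on either strand, against 17.8% of 32851 mouse windows of the same length. Fos held it at 129 and at 66 bases before the start, and Junb at 106. The full TGACGTCA and the AP-1 site TGANTCA, searched on both strands, were in 0 of the 8 windows, against 1.55% and 6.75% of all windows. Only exact matches were counted, so the close spelling tgacatca in the Jun window was not. The TATA box TATAAA was in the Fos window, 33 bases before the start, and in none of the other 7, against 12.4% of all windows. The windows lie before RefSeq starts, which equal the GENCODE start for Jun and Fos only. The windows of Atf3 and Fosl2 lie inside the GENCODE gene, and that of Jund ends some way before it. TGACGTCA contains TGACG, and the matches are letters in these windows, not sites shown to be bound.

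Junb, which lies on chromosome 8 (84974484 to 84978718, minus strand, GRCm38), was at the highest level of the 8 and had the widest difference in CPM. It was at 2687, 3148, 2750.1 and 2958 CPM on the 4 deleted-host plates, against 1143, 1257, 1509 and 1234 CPM on the 4 control-host plates. Every deleted-host plate lay above every control-host plate, by a wide gap. The pool values were 2889.9 CPM in deleted hosts (exact Poisson 95% interval 2885 to 2894, counting error only) and 1285 CPM in control hosts (1282 to 1288), a ratio of 2.25. Junb was the 1 gene of the 8 at least 2-fold apart. Of the 9764 genes at 5 CPM or more in either pool, 5.98% were 2-fold higher in deleted hosts and 6.71% 2-fold lower. Fosl2 and Atf3, under 5 CPM in both pools, were not among the genes behind these shares, here and for the plates below. At 100 CPM or more, the range in which Junb lay, those shares were 0.544% and 0.419% of 2388 genes. Ratios of pool CPM, here and in what follows, are (CPM + 1) over (CPM + 1), on which scale the folds of low genes are understated.

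Jun, the partner of Fos in the classical AP-1 dimer (chromosome 4, 95049034 to 95052222, minus strand), was at 478, 359, 534 and 509.5 CPM on deleted-host plates, against 243, 209.5, 351 and 327 CPM on control-host plates. The pools did not overlap, but the nearest plates, at 359 CPM in deleted hosts and 351 CPM in control hosts, almost met. The pool values were 471 and 284 CPM, a log2 ratio of 0.73. Jund (chromosome 8, 70698949 to 70700616, plus strand) was at 284, 246, 245 and 269.5 CPM on deleted-host plates, against 121, 190.1, 218 and 221 CPM on control-host plates. Its plates did not overlap either, and the lowest control plate stood well under the other 3. The pool values were 261 and 188 CPM, a log2 ratio of 0.47, which was 0.31 without that plate. The 3 Jun family genes were the 3 of 8 genes whose deleted-host plates all lay above the control-host plates, where 1.81% of genes at 5 CPM or more did so and 2.6% lay wholly below. At 100 CPM or more these shares were 2.43% and 3.85%. With each cell weighted equally, by the mean of per-cell CPM, the plates of Jun overlapped. Fos joined the 3 with control plate 3 or deleted plate 1 left out.

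Fos (chromosome 12, 85473890 to 85477273, plus strand) was at 517, 596, 763 and 586 CPM on deleted-host plates, against 467, 353, 582 and 403 CPM on control-host plates. The plates overlapped, with 1 control-host plate above the lowest deleted-host plate. The pool values of 618 and 451.5 CPM gave a log2 ratio of 0.45, which was 0.40 once each pool's highest cell was left out. That cell in deleted hosts reached 22212 CPM, against 4817 CPM for the highest cell in control hosts. Fosb (chromosome 7, 19302696 to 19310051, minus strand), a second Fos protein of the immediate early class, was at 2.17, 11.5, 5.31 and 7.98 CPM in deleted hosts, against 1.57, 0.217, 2.12 and 14.3 CPM in control hosts. The plates overlapped, and the log2 ratio of 0.47 ranged from 0.15 to 1.76 with 1 plate left out, reaching 1.76 without control plate 4. Fosl2 (chromosome 5, 32135801 to 32157842, plus strand), which encodes Fra-2, was at 3.70, 0.111, 2.20 and 0.111 CPM in deleted hosts, against 0.779, 1.89, 0.935 and 1.59 CPM in control hosts. Its pool values of 1.47 and 1.29 CPM lay within overlapping plates, of which 2 deleted-host plates held almost no reads.

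Batf, which pairs with Jun proteins and lacks the activation domain of Fos, was the subunit with the smallest log2 ratio in size. Batf (chromosome 12, 85686669 to 85709087, plus strand) was at 89.6, 81.4, 84.6 and 75.2 CPM on deleted-host plates, against 80.1, 78.9, 67.3 and 126 CPM on control-host plates. The plates overlapped, and the highest value was from control plate 4. Its log2 ratio of -0.10 became 0.13 without that plate. Atf3 (chromosome 1, 191170296 to 191218039, minus strand), a stress-induced subunit, was at 1.13, 6.07, 1.005 and 0.674 CPM in deleted hosts, against 0.827, 0.776, 0.803 and 0.540 CPM in control hosts. A single cell with 706 reads, or 469 CPM, on deleted plate 2 carried its difference, since the log2 ratio was 0.89 with it and 0.15 once each pool's highest cell was left out.

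**Figure D1:**
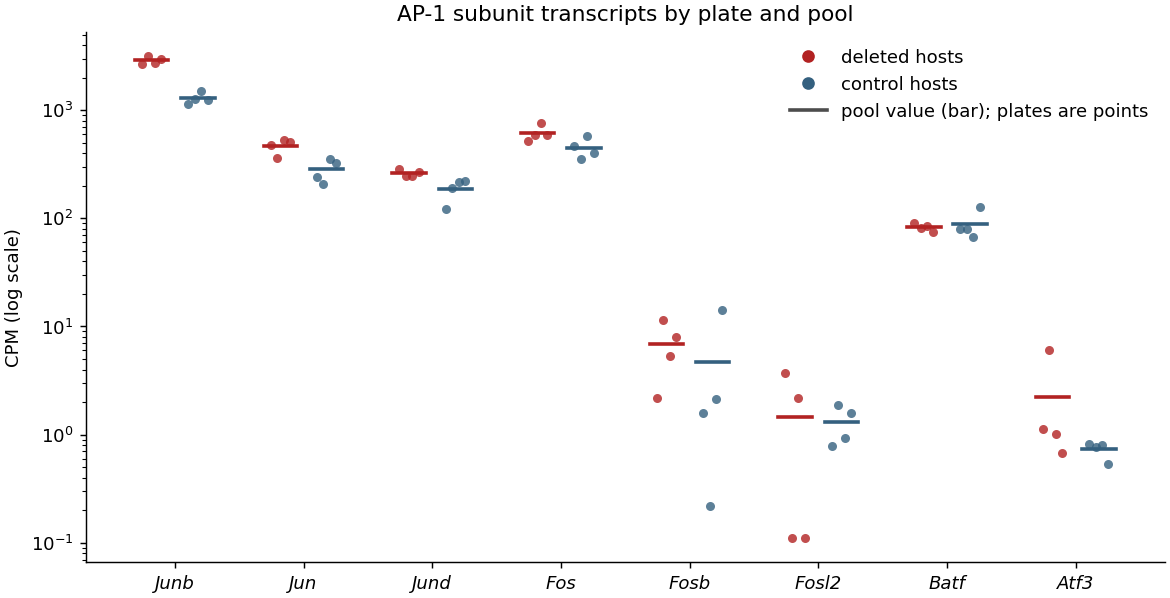
CPM of the 8 AP-1 subunits on a log scale, with deleted hosts on the left and control hosts on the right of each pair, points for the 4 plates of a pool and bars for the pool values. The plates of Junb, Jun and Jund do not overlap between the pools, and those of the other 5 genes do.

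Divided by exon length (GENCODE M21), the level of Junb was 1256 CPM per kb in deleted hosts and 559 CPM per kb in control hosts. Fos followed at 263 and 192 CPM per kb, Jund at 156 and 112 CPM per kb, and Jun at 148 and 88.9 CPM per kb. Jund and Jun were not separate in this order, since their plates overlapped in both pools (Jund 147 to 170.4 and Jun 112.5 to 167 CPM per kb in deleted hosts, Jund 72.8 to 132 and Jun 65.7 to 110.2 CPM per kb in control hosts). Batf stood at 58.6 and 63.0 CPM per kb, and Fosb, Atf3 and Fosl2 were at 1.09 CPM per kb or less. Junb made up 80.5% of the Jun family level per kb in deleted hosts, with plates from 78.5 to 84.0%, and 73.5% in control hosts, with plates from 69.5 to 76.9%. These plate ranges did not overlap. Fos made up 99.5% of the Fos family level per kb in each pool.

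The strand setting of the read counting is not given in the sources used here, so reads of overlapping genes cannot be told apart. Prdx2, which overlaps Junb on the other strand, was at 126 CPM in deleted hosts and 112 CPM in control hosts, equal to 4.36% and 8.73% of the Junb reads. Junos, antisense to Jun, was at 0.0203 and 0.707 CPM.

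A pool can differ in the share of cells that hold a gene's reads or in the level within those cells. To separate these, a gene counted as positive in a cell that reached both 10 CPM and 5% of that gene's plate mean. Control wells named noinput or dw (9 wells, 6698 to 12348 reads each) were taken as wells without a cell, although the labels do not explain dw. They held 6 to 17 reads of Junb, 1 to 11 of Jun, 2 to 11 of Fos and 0 to 3 of Jund. Junb-negative cells held a median of 12 reads in deleted hosts and 10 in control hosts. Fos-negative cells held 7 and 6 reads and Jun-negative cells 4 and 4, which also lie within the ranges of the wells without a cell.

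Junb differed mainly in level within positive cells. It was positive in 338 cells (91.8%, exact Clopper-Pearson 95% interval 88.6 to 94.4%) of deleted hosts and in 297 cells (80.7%, 76.3 to 84.6%) of control hosts, with plates from 85.9 to 95.7% and from 70.7 to 87.0%. These plate ranges overlapped. The median in positive cells was 2685 CPM in deleted hosts and 1215 CPM in control hosts, and its plate values of 2225 to 3056 CPM and 1123 to 1266 CPM did not overlap. The mean in positive cells was 1.96 times that of control hosts and the share of positive cells 1.14 times. The limit of 5% of the plate mean was higher in deleted hosts. At a fixed 100 CPM the shares were 92.1% and 79.6%. Over all cells the lower quartile, median and upper quartile were 1137, 2436 and 4009 CPM in deleted hosts, against 329.9, 942 and 1855 CPM in control hosts, so that the control upper quartile lay under the deleted-host median.

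Jund was similar in form, at a lower level. It was positive in 307 cells (83.4%, 79.2 to 87.1%) of deleted hosts and 285 cells (77.4%, 72.8 to 81.6%) of control hosts. The plates ranged from 80.4 to 90.2% and from 60.9 to 85.9%, and overlapped, with control plate 1 lowest. The median in positive cells was 275 CPM in deleted hosts and 201 CPM in control hosts, with plate values of 264 to 286 CPM and 188 to 222 CPM that did not overlap. Control plate 1 also had the lowest share of Junb-positive cells.

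Fos and Jun were read at high levels in some cells and at a few reads in the rest. The median of Fos over all cells was 7.73 CPM in deleted hosts and 5.51 CPM in control hosts, while positive cells had medians of 1128 and 1094 CPM. Fos was positive in 145 cells (39.4%, 34.4 to 44.6%) of deleted hosts and in 122 cells (33.2%, 28.4 to 38.2%) of control hosts. The plates ranged from 36.96 to 43.5% in deleted hosts and from 32.6 to 33.7% in control hosts and did not overlap, although the intervals over cells did. Jun was positive in 144 cells (39.1%, 34.1 to 44.3%) of deleted hosts and 117 cells (31.8%, 27.1 to 36.8%) of control hosts, with overlapping plates. The median in Jun-positive cells was 967 CPM in deleted hosts and 821 CPM in control hosts, again with overlapping plates. The 37 cells with the most reads of a gene held 58.6% and 60.8% of Fos reads and 55.0% and 59.3% of Jun reads in deleted and control hosts, but 27.6% and 35.4% of Junb reads.

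Batf was positive in 72 cells (19.6%, 15.6 to 24.0%) of deleted hosts and 70 cells (19.0%, 15.1 to 23.4%) of control hosts. Its median in positive cells was 392.3 CPM in deleted hosts and 409 CPM in control hosts. Fosb was positive in 17 cells of deleted hosts (4.62%, 2.71 to 7.29%) and 7 cells of control hosts (1.90%, 0.768 to 3.88%). At 100 CPM or more there were 7 cells in each pool, so the 10 other deleted-host cells were under that level. Of the Fosb-positive cells, 14 of 17 in deleted hosts and 3 of 7 in control hosts were also Fos-positive. Fosl2 was positive in 8 cells of each pool, 2 of them in each pool at 100 CPM or more. Atf3 was positive in 3 cells of deleted hosts and 1 of control hosts. Of those 3, 2 were wells of 71129 and 9905 reads in which 2 reads and 1 read of Atf3 passed the limit, which wells without a cell also reached (0 to 3 reads).

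**Figure D2:**
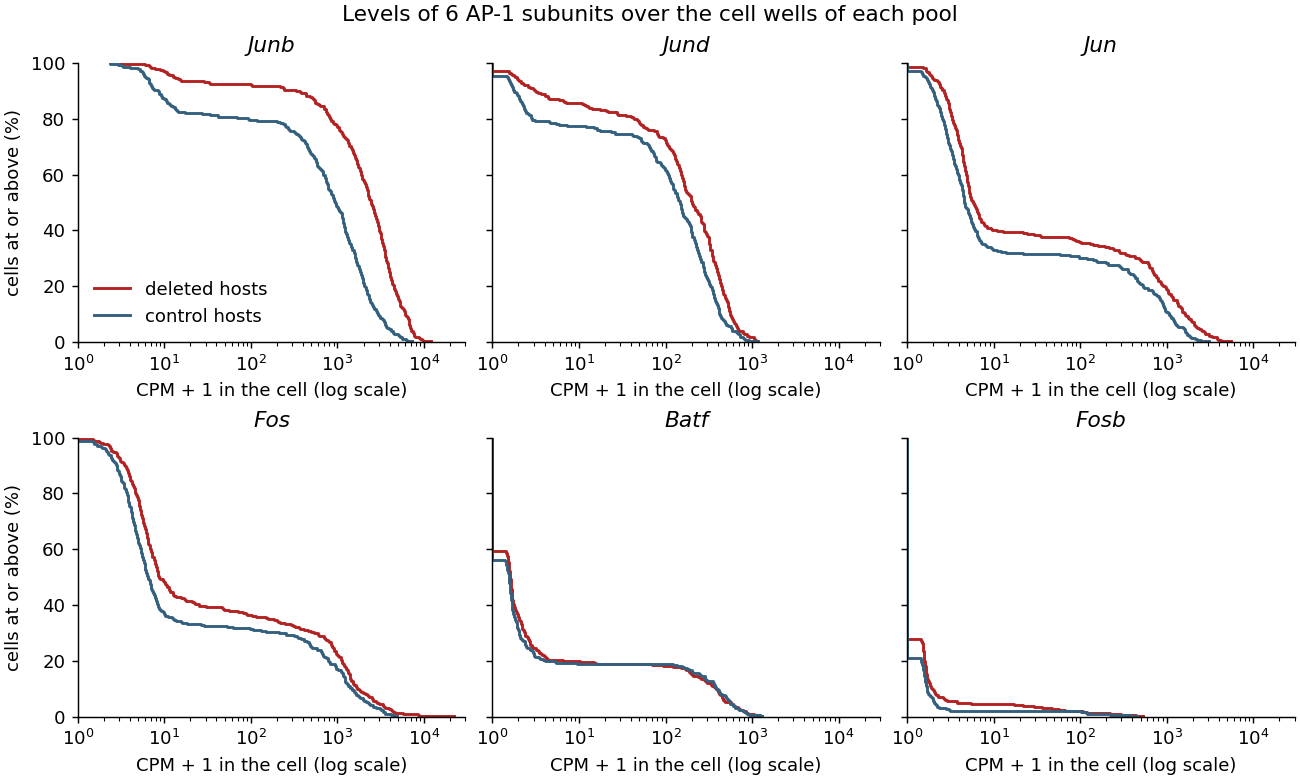
Share of the cells of each pool (vertical axis, %) at or above a given level (horizontal axis, CPM + 1, log scale) for 6 AP-1 subunits, deleted hosts in red and control hosts in blue. The Junb curve of deleted hosts lies to the right of that of control hosts over most of its length, Fos and Jun drop steeply at under 10 CPM and then run flat, and the Batf curves nearly coincide.

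More of the 8 genes were positive per cell in deleted hosts than in control hosts. This count includes Junb and Jun, on whose pool levels the family was selected, and no count without them is given. At least 3 of the 8 genes were positive in 224 cells (60.9%, 55.7 to 65.9%) of deleted hosts, against 170 cells (46.2%, 41.0 to 51.4%) of control hosts. By plate these shares were 57.6, 56.5, 69.6 and 59.8% in deleted hosts and 32.6, 42.4, 53.3 and 56.5% in control hosts, so the lowest deleted-host plate and the highest control-host plate had the same share. The median was 3 genes per cell in deleted hosts and 2 in control hosts. None of the 8 was positive in 3 cells of deleted hosts and 12 cells of control hosts. The highest number was 6 genes, in 5 cells of deleted hosts and 1 cell of control hosts. Thinned to 500000 reads per cell, with 4 deleted-host and 2 control-host cells left out as shallower, 61.3% and 46.7% of cells had at least 3 genes positive.

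**Figure D3:**
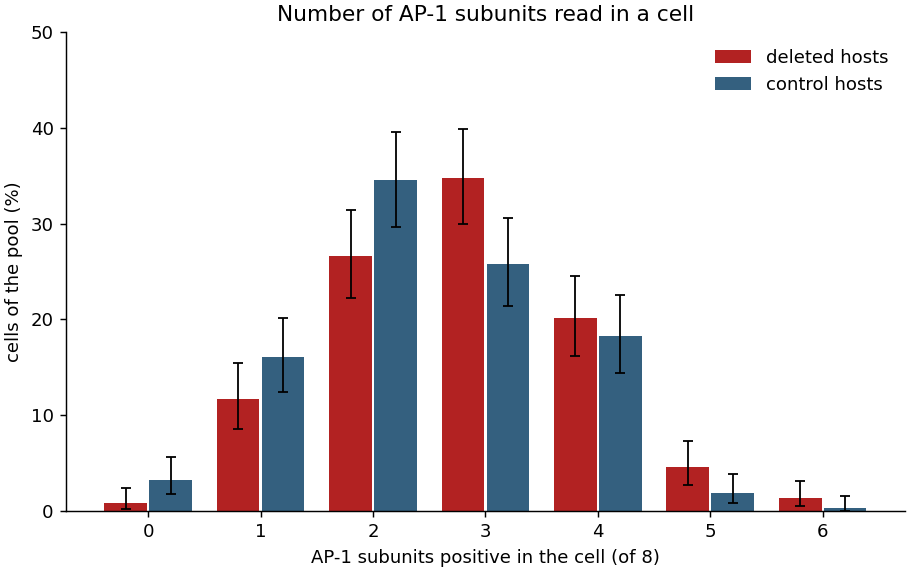
Share of cells (vertical axis, %) by the number of AP-1 subunits positive in the cell (horizontal axis, of 8), deleted hosts left of control hosts, with exact 95% binomial intervals over cells as error bars (counting error only). The highest bar is at 3 subunits in deleted hosts (34.8%) and at 2 subunits in control hosts (34.5%).

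At least 1 Jun family gene was positive in 362 cells (98.4%) of deleted hosts and 351 cells (95.4%) of control hosts, and at least 1 Fos family gene in 153 and 132 cells. A Jun and a Fos family gene were both positive in 151 cells (41.0%, 36.0 to 46.2%) of deleted hosts and 129 cells (35.1%, 30.2 to 40.2%) of control hosts. A Fos family gene was positive without a Jun family gene in 2 and 3 cells. All 3 Jun family genes were positive in 122 cells (33.2%, 28.4 to 38.2%) of deleted hosts and 85 cells (23.1%, 18.9 to 27.7%) of control hosts, with plates of 27.2 to 40.2% and 13.04 to 31.5% that overlapped. The most frequent combination was Junb with Jund and no other member, in 74 cells of deleted hosts and 80 of control hosts. Junb, Jun, Jund and Fos together, without the other 4 genes, were in 45 and 31 cells. Junb with Jund and Fos was in 49 and 34 cells, and Junb with Jun and Jund in 46 and 31.

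Jun was positive in a higher share of Fos-positive than of Fos-negative cells, within overlapping intervals. Of 145 Fos-positive cells in deleted hosts, 68 were also Jun-positive (46.9%, 38.6 to 55.4%), against 76 of 223 Fos-negative cells (34.1%, 27.9 to 40.7%). In control hosts the shares were 46 of 122 (37.7%, 29.1 to 46.9%) and 71 of 246 (28.9%, 23.3 to 34.96%). The share was higher in Fos-positive cells on 4 of 4 deleted-host plates and 3 of 4 control-host plates, and the intervals overlapped in both pools. Junb was positive in 96.6% of Fos-positive and 88.8% of Fos-negative cells of deleted hosts, and in 88.5% and 76.8% in control hosts, with the same direction on all 8 plates. Batf showed no such difference in deleted hosts, where it was positive in 29 of 145 Fos-positive cells (13.8 to 27.4%) and 43 of 223 Fos-negative cells (19.3%, 14.3 to 25.1%). In control hosts the Batf shares were 24.6% (17.3 to 33.2%) and 16.3% (11.9 to 21.5%), with overlapping intervals. The cells of 1 pool are not replicates, and these shares describe the wells measured.

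**Figure D4:**
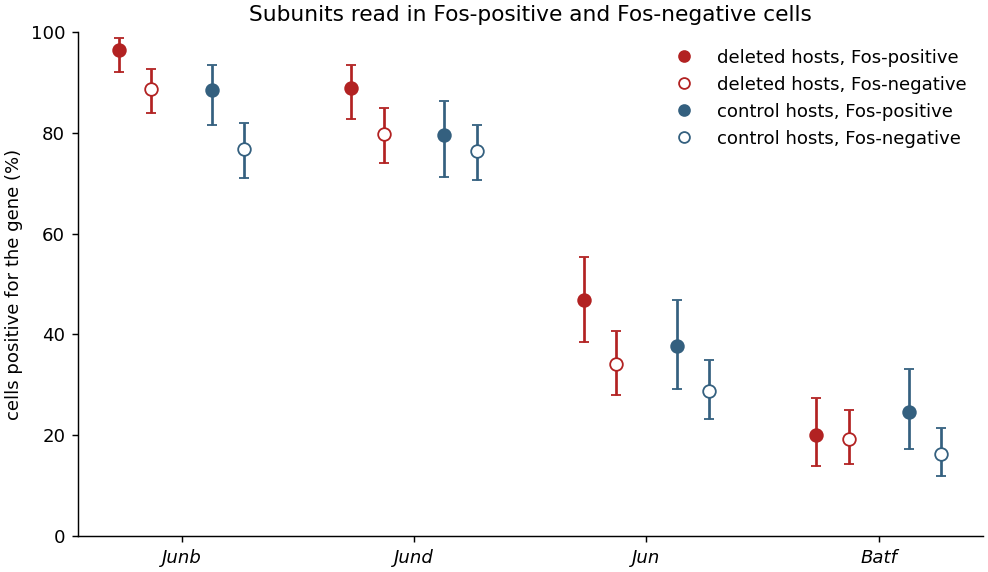
Share of cells positive for Junb, Jund, Jun and Batf (vertical axis, %) among Fos-positive cells (filled) and Fos-negative cells (open), deleted hosts left of control hosts, with exact 95% binomial intervals over cells as error bars. For Junb, Jund and Jun the filled points lie above the open ones in both pools, and for Batf the 2 points of deleted hosts nearly meet. The Jund share of control hosts was higher in Fos-positive cells on only 2 of 4 plates.

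The difference in Junb was present whether or not a cell had Fos and Jun. In cells positive for both, Junb was at 3633 CPM in deleted hosts (68 cells) and 1868 CPM in control hosts (46 cells). In cells negative for both it was at 2536 CPM (147 cells) and 1227 CPM (175 cells), a log2 ratio of 1.05. Cells with Fos alone had Junb at 2914 CPM in deleted hosts and 1247 CPM in control hosts, and cells with Jun alone at 2854 and 1065 CPM. The pooled level was highest where Fos and Jun were both positive, but the plate medians of these cells overlapped those of cells with Jun alone in both pools (2935 to 3335 and 1725 to 3517 CPM in deleted hosts, 1215 to 1924 and 558 to 1421 CPM in control hosts). Cells positive for Nr4a1 and Cd69, genes that T cell receptor signals induce, made up 85 deleted-host and 45 control-host cells and had Junb at 3333 and 1707 CPM. In the other cells Junb was at 2753 CPM in deleted hosts and 1223 CPM in control hosts. The plate medians of these cells overlapped those of the Nr4a1 and Cd69 positive cells in deleted hosts. In control hosts they did not (660 to 1122 against 1256 to 1665 CPM). Cells positive for Cxcr5, the follicle-homing receptor of T follicular helper cells, had Junb at 3000.3 CPM in deleted hosts (57 cells) and 1106 CPM in control hosts (46 cells), and the other cells at 2867 and 1314 CPM. The plate medians of Cxcr5-positive and other cells overlapped in both pools. Those of Cxcr5-positive control-host cells ran from 86.7 to 1905 CPM, against 736 to 1156 CPM in the others. Cells above the median read number of their pool had Junb at 2927 and 1285 CPM and the remaining cells at 2833 and 1286 CPM, so the ratio was close in deep and shallow cells. Cells positive for Tnfrsf9 (4-1BB), a receptor of activated T cells, had Junb at 2489 CPM in deleted hosts (64 cells) and 1212 CPM in control hosts (46 cells). The other cells had it at 2983 and 1296 CPM. The plate medians of Tnfrsf9-positive and other cells overlapped in both pools. In control hosts the median over cells was higher in Tnfrsf9-positive cells (1122 CPM) than in the others (924 CPM). These splits were chosen with values of the cells known.

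The genes whose level over cells was most like that of Junb were sought by Pearson's r of log2(CPM + 1) over 736 cells, with each plate's mean removed, among 4269 genes positive in at least 10% of cells. The likeness was weak throughout, with a median r of 0.007 and a 95th percentile of 0.074, and in sparse counts such values are no finding. The 8 highest genes outside the family were Rps27 (0.17), Ppp1r15a (0.15), Il2rg (0.14), and Cd3g, Rps19, Ier2, Nfkbia and Nxf1 (0.13 each). Fos had an r of 0.15, Jun of 0.11, Jund of 0.09 and Batf of 0.03.

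Other bZIP factors, some of which pair with Jun or Fos proteins, were mostly within 2-fold. Of 22 genes, 15 were measured at 5 CPM or more in either pool, 1 was at least 2-fold higher in deleted hosts and 0 lower, and 0 had plates apart. The higher one was Atf6, an endoplasmic reticulum stress sensor, at 16.5 CPM in deleted hosts and 6.57 CPM in control hosts, named after its values were seen. Its log2 ratio of 1.21 was 0.85 without control plate 3. The members named by size were Nfe2l2, a regulator of the oxidative stress response (104.5 and 154 CPM, log2 ratio -0.56), Mafg (32.0 and 22.1 CPM), Atf2 (74.3 and 51.9 CPM) and Atf1 (65.6 and 47.2 CPM). The median log2 ratio was 0.29, against -0.04 over all genes at 5 CPM or more.

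Among 6 NFAT and IRF genes, whose products bind DNA beside AP-1, 2 were at least 2-fold higher in deleted hosts and 0 lower. Nfatc2 was at 19.1 CPM in deleted hosts and 6.48 CPM in control hosts with plates apart, named after its values were seen. Irf8 had 74.6 CPM in deleted hosts and 31.6 CPM in control hosts, a log2 ratio of 1.22, or 0.92 with deleted plate 3 left out. Nfatc3 was at 83.3 and 107.5 CPM, Nfat5 at 20.8 and 15.03 CPM, and Irf4, the partner of BATF and JunB, at 21.7 and 20.4 CPM, within 2-fold. Batf and Irf4 were both positive in 8 cells of deleted hosts (2.17%, 0.943 to 4.24%) and 2 cells of control hosts (0.543%, 0.0659 to 1.95%). The intervals overlapped, as did the plates, and Irf4 was positive in only 16 and 14 cells. The list's median of 0.26 ranged from -0.01 to 0.84 with 1 plate left out.

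The signalling genes upstream were nearly all within 2-fold. Of 29 Ras and MAP kinase genes, all measured, 0 were at least 2-fold higher and 1 lower in deleted hosts, with a median log2 ratio of -0.02. The lower one was Mapk3, which encodes the kinase ERK1, at 2.06 CPM in deleted hosts and 10.2 CPM in control hosts with plates apart, positive in 4 and 17 cells and named after its values were seen. The largest ratios at 20 CPM or more were those of Map2k6 (21.6 and 12.5 CPM), Mapkapk2 (51.1 and 31.5 CPM), Map3k5 (54.5 and 35.8 CPM) and Map2k7 (15.6 and 22.3 CPM), with overlapping plates. Of 6 measured genes of SRF and the ternary complex factors, which bind the Fos promoter, 1 was 2-fold lower. This was Mkl2, an SRF coactivator, at 25.5 CPM in deleted hosts and 70.2 CPM in control hosts, with overlapping plates. Srf itself was at 14.2 CPM in deleted hosts and 9.24 CPM in control hosts with plates apart, a log2 ratio of 0.57, also named after its values were seen. The other named genes, Elk3, Elk4 and Mkl1, lay within 2-fold with overlapping plates.

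Among genes that restrain AP-1, 13 of the 15 with a row were measured, 2 were at least 2-fold higher and 1 lower, and the median log2 ratio was 0.20. Dusp5, an ERK phosphatase, was at 218 CPM in deleted hosts and 36.5 CPM in control hosts with plates apart, and was positive in 141 and 44 cells. Dusp1, which dephosphorylates MAP kinases, had 1228 and 656 CPM with plates apart, at a log2 ratio of 0.90. Dusp4 was the other higher gene (8.84 and 1.92 CPM), with overlapping plates and only 8 and 2 positive cells. The lower one was Fbxw7, whose ubiquitin ligase degrades Jun (8.81 and 19.4 CPM), at a log2 ratio of -0.69 without deleted plate 2. Both were named after their values were seen. Dusp10 (159 and 127 CPM) and Itch, a ubiquitin ligase for Jun proteins (48.5 and 32.5 CPM), had overlapping plates.

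The other immediate early genes were more often higher than lower in deleted hosts, with members in both directions. Of 24 measured of 26, 17 had a log2 ratio above 0, against 46.3% of all genes at 5 CPM or more. At least 2-fold higher were 6 and lower 2, against 5.98% and 6.71% of all genes at that level. All deleted-host plates lay above in 8 and below in 1, against 1.81% and 2.6%. The median log2 ratio was 0.49, against -0.04. The list was chosen with earlier results of these data known. Summed over the list, the level was 7680.3 CPM in deleted hosts (plates 7217 to 7951) and 5390.05 CPM in control hosts (4489.8 to 6521), which did not overlap. Tnfaip3, an inhibitor of NF-kappaB, was at 512 and 137 CPM, Rgs2, a regulator of G protein signalling, at 238 and 71.8 CPM, and Gadd45b, a stress response gene, at 106 and 40.4 CPM, the last with overlapping plates. With deleted plate 2 left out Gadd45b had a log2 ratio of 0.82. Egr1, a zinc finger factor induced through ERK and SRF as Fos is, went the other way, at 116 CPM in deleted hosts and 296 CPM in control hosts with plates apart. The other lower gene was Egr3 (12.8 and 30.7 CPM, log2 ratio -0.86 without deleted plate 3). Klf4, Klf6 and Rgs1 were the other higher genes, named with Egr3 after their values were seen. Each of the 3 was under 2-fold with some plate left out (log2 ratios of 0.89 without deleted plate 4, 0.93 without control plate 4 and 0.85 without deleted plate 2).

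Egr1 was nevertheless read more often in Fos-positive cells within each pool. It was positive in 32.4% (24.9 to 40.7%) of Fos-positive and 16.6% (11.96 to 22.1%) of Fos-negative cells of deleted hosts, on 3 of 4 plates in that direction. In control hosts the shares were 37.7% (29.1 to 46.9%) and 24.4% (19.2 to 30.3%), on 4 of 4 plates. For Tnfaip3 the shares were 59.3% (50.8 to 67.4%) and 43.0% (36.5 to 49.8%) in deleted hosts and 18.0% (11.7 to 26.0%) and 17.5% (12.9 to 22.8%) in control hosts. For Dusp5 they were 34.5% (26.8 to 42.8%) and 40.8% (34.3 to 47.6%) in deleted hosts and 12.3% and 11.8% in control hosts, with overlapping intervals, and 50 of the 141 Dusp5-positive cells of deleted hosts were Fos-positive. Whether these shares differ between the pools was not tested, nor was the part of read depth in them.

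T cell genes with known AP-1 sites were mostly low. Of 17, 8 were measured, 0 were 2-fold higher and 1 was lower, with a median log2 ratio of 0.24. The lower one was Tnf, at 3.75 CPM (5 positive cells) in deleted hosts and 23.6 CPM (13 positive cells) in control hosts, with overlapping plates. The inhibitory receptor genes Ctla4 (168 and 98.6 CPM) and Pdcd1 (145 and 111 CPM) and the costimulatory gene Icos (277 and 225 CPM) were within 2-fold with overlapping plates. Il2, Il4, Il5, Il13, Ifng, Csf2, Ccl3, Ccl4 and Xcl1 were under 5 CPM in both pools. Heat shock genes, which like immediate early genes can respond to the handling of cells, had 9 of 11 measured, 0 past 2-fold and 0 with plates apart. They summed to 6771 CPM in deleted hosts (plates 6439 to 7175) and 6184 CPM in control hosts (5769.6 to 6853), which overlapped, and the largest ratios were those of Hspa5, Hsp90aa1, Hsph1 and Dnaja1, at log2 0.22 to 0.35. The part of handling in the AP-1 levels was not tested.

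**Figure D5:**
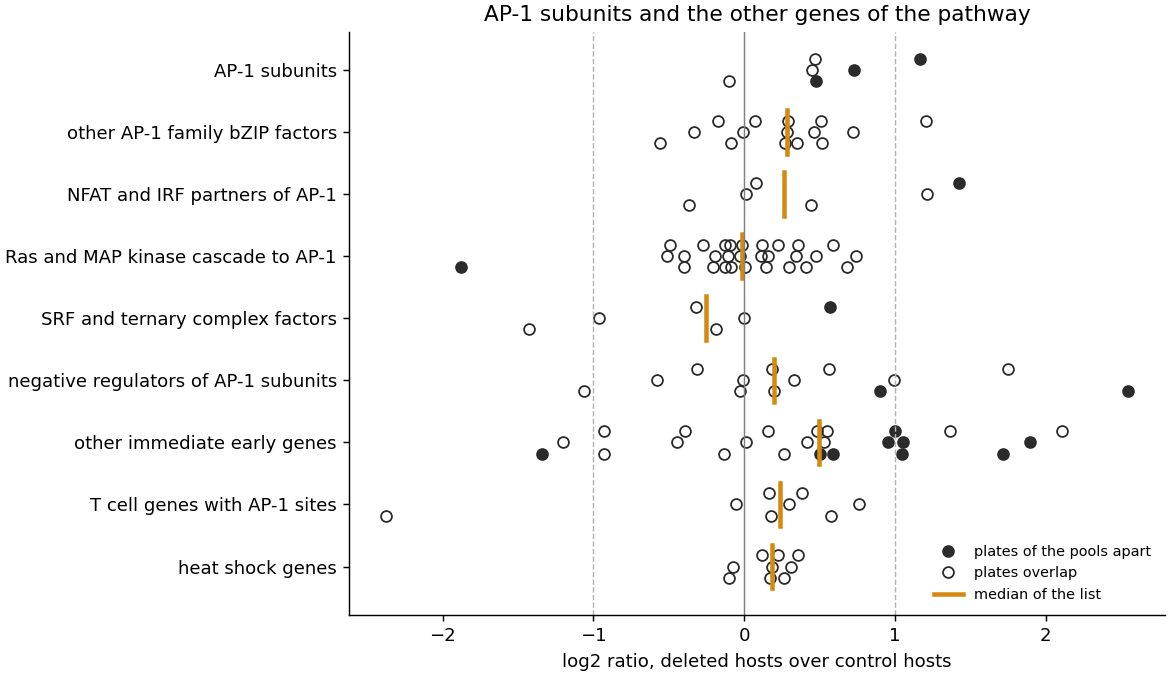
Log2 ratio of deleted over control hosts (horizontal axis) for the AP-1 subunits at 5 CPM or more and for the measured genes of 8 lists, with filled points where plates were apart between the pools, open points where they overlapped, and orange bars at list medians. Dashed lines mark 2-fold, and Junb is the 1 subunit past them.

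The 8 CD4 T cell genes with a row summed to 8083 CPM in deleted hosts and 7767 CPM in control hosts. The 6 natural killer genes summed to 48.0 CPM in deleted hosts (plates 41.4 to 53.7) and 28.4 CPM in control hosts (19.7 to 39.6), without overlap, mainly from Prf1 and Klrb1c. The defining gene Ncr1 was at 0.861 and 0.640 CPM. The 8 myeloid genes summed to 30.5 CPM in deleted hosts (plates 28.4 to 33.1) and 28.0 CPM in control hosts (21.9 to 35.9), where Itgam reached 14.9 CPM on 1 control plate. The myeloid genes Lyz2 and Tyrobp had every deleted-host plate above every control-host plate, and Lyz2, positive in 285 and 223 cells, had 15.3 and 12.03 CPM. The 6 dendritic cell genes summed to 8.48 and 4.58 CPM, with overlapping plates. The 5 regulatory T cell genes summed to 340.3 and 379 CPM, the 2 CD8 genes to 9.47 and 26.5 CPM, the 4 plasma cell genes to 118 and 112 CPM, the 5 red cell genes to 13.1 and 10.9 CPM and the 3 platelet genes to 0.114 and 0.0907 CPM, also with overlapping plates. The part of these cells in the AP-1 levels was not tested.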

How the data were processed

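The deposited values are raw read counts, as whole numbers for each gene in each well. They were made with featureCounts 2.0.1 on build mm10, per the submitters' processing notes. For the aligner, the annotation, strandedness and multi-mapped reads, no entry was found (not given in the sources used here). Amplification took 25 PCR cycles, per the labels' protocols, which name no molecular identifiers. PCR copies of a molecule therefore count as separate reads, and intervals and floors cover counting error only.

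Counts of the 736 cell wells were summed per pool and plate and scaled to 1000000 reads in genes (CPM). Each column is named by its plate and well, and no plate held cells of both pools. The 32 control wells entered no comparison. All cell wells were kept, and doublets were not called because each well was to receive 1 cell. Kept with them was the deleted-host well of 9905 reads, a depth within the 6698 to 12348 reads of wells without a cell. It counted as positive for 5 of the 8 genes, and so entered the shares of deleted hosts. Plates hold 125197307 to 143937319 reads in deleted hosts and 137968663 to 148025125 in control hosts. The log2 ratio uses a pseudocount of 1 CPM. A gene was 2-fold higher or lower where the size of this log2 ratio reached 1, with no test behind it. List genes were measured at 5 CPM or more in either pool. Named were the 8 members, in each list up to 4 genes of at least 20 CPM, taken by the size of their ratios, and the 8 genes most like Junb. The members, lists and rules were chosen with earlier results of these data known. Of the list and marker symbols 7 had no row and were not analysed here, among them the 3 gamma delta T cell markers. Also among these 7, Mrtfa, Mrtfb and Cop1 are other names of Mkl1, Mkl2 and Rfwd2, which were analysed under those symbols. The sum of 1 other marker list is not reported here. Coordinates and exon lengths are from GENCODE M21 (GRCm38) and promoter windows from RefSeq (GRCm38.p6). The scaling code was tested on simulated counts. Alternatives used TMM factors (edgeR 4.0.16) and DESeq2 1.42.0 size factors. Python 3.11.15, numpy 2.4.6, pandas 2.3.3, scipy 1.17.1 and R 4.3.3 were used.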

Additional observations from a re-analysis of the deposited data

Results flagged for a closer look

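The highest or lowest of the 4 plates of a pool was set against the other 3 by Dixon's 95% limit on its gap over the whole range, which chance passes in about 1 in 20 sets. Of 16 sets (8 genes in 2 pools) 2 passed it, and plates are splits of 1 pool, not samples. For Fosb, control plate 4 stood apart from the other 3 control plates at 14.3 CPM, and it held 5 of the 7 Fosb-positive control cells. For Atf3, deleted plate 2 stood apart at 6.07 CPM, where 1 cell held 706 reads.

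Control wells whose names hold mBM10 or mBM100, names that the labels do not explain, held 3 of the subunits above the level of any plate of cells. Over the 22 such wells with 580094 to 2740373 reads (1 more, with 11622 reads, was left out), Atf3 was at 132 CPM, Fosl2 at 52.4 CPM and Fosb at 25.9 CPM. In wells without a cell Fosl2 and Fosb had 0 reads and Atf3 at most 3. These 3 genes were thus read in the same plates where they occurred in few T cells.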

How the results depend on the processing

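No result changed direction for Junb, Jun, Jund or Fos under the 15 alternatives for ratios, with log2 ratios of 1.12 to 1.25, 0.62 to 0.85, 0.31 to 0.56 and 0.33 to 0.60. Batf (-0.21 to 0.13) and Fosl2 (-0.35 to 0.37) took either sign. The count of genes at least 2-fold apart was 2 with a pseudocount of 0.1 CPM (Junb and Atf3), and ranged from 1 to 2 with 1 plate left out, where Fosb joined without control plate 4 and Atf3 without deleted plate 1, 3 or 4. The count of genes with plates apart was 3 to 4 with 1 plate left out. With each cell weighted equally it was 3, but Atf3 took the place of Jun. The share of cells with at least 3 genes positive was 53.3% in deleted hosts and 37.5% in control hosts at 100 CPM, and 91.8% and 82.6% at 5 reads, a limit that wells without a cell also passed for Junb, Jun and Fos. With 1 plate left out it was 58.0 to 62.3% and 42.8 to 50.7%. The share of Fos-positive cells also positive for Jun was 70.4% and 61.6% at 5 reads, and 45.5 to 49.5% and 36.3 to 41.3% with 1 plate left out. Other scalings moved the median log2 ratio of all genes from -0.04 to -0.02 (TMM) or -0.01 (DESeq2 size factors). No paired analysis was possible because each group was 1 pooled sample. Deeper reads would not narrow the differences between animals, which 1 pool per group leaves unmeasured.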
